A study of Mus musculus with 4 samples.

Results

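The tumour necrosis factor (TNF) superfamily pairs membrane-bound or shed cytokines with receptors that carry cysteine-rich repeats outside the cell. The genes here are those with a symbol starting Tnfsf or Tnfrsf and a number, and Tnf, Lta, Ltb, Ltbr, Cd40, Cd40lg, Cd70, Cd27, Fas and Fasl. Of these, 39 of the 19938 genes measured had a probe set of their own, 15 ligands and 24 receptors. Tnfsf12 and Tnfsf13 had only a probe set that names several genes and were not measured singly. Each of the 39 had 1 probe set.

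RNA of bone marrow cells from C57BL/6N mice was hybridised to Affymetrix whole-transcript arrays. The control group (2 arrays, PBS replicates 1 and 3) came from mice given phosphate-buffered saline (PBS) intraperitoneally and the treated group (2 arrays, LPS replicates 1 and 2) from mice given 50 µg lipopolysaccharide (LPS), a mixture of Escherichia coli K12 and Salmonella minnesota material, and both were taken 8 h after a single injection. The ages of the mice, the cells removed or kept during isolation, and whether each array held RNA of 1 mouse are not given in the labels. The p-values thus rest in part on the spread between these samples, which may be partly technical. The limma fit also draws on the spread of all other genes, with 2 residual and 5.59 prior degrees of freedom.

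Trimeric ligands of this family cluster their receptors. Receptors with a death domain recruit FADD or TRADD and can start caspases, while most others bind TRAF adaptors and activate NF-kappaB, and decoy receptors take up ligand without signalling. In marrow the family is known for osteoclast formation (RANKL, encoded by Tnfsf11, its receptor RANK, encoded by Tnfrsf11a, and the decoy osteoprotegerin, encoded by Tnfrsf11b), for B-cell survival (BAFF, encoded by Tnfsf13b) and for the inflammatory actions of TNF itself.

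Values are log2 expression values, and differences are LPS minus PBS. The array medians over all genes lay between 8.01 and 8.03, and the arrays correlated across genes, which are not independent replicates, at 0.995 within PBS, 0.997 within LPS and 0.988 to 0.990 between the groups. Markers of the main marrow lineages were far above these medians on all 4 arrays, with mean log2 values of 12.62 to 12.99 for neutrophil, 11.53 to 11.84 for erythroid and 12.29 to 12.36 for megakaryocyte genes. T-cell and natural killer markers were near the array medians, at 8.02 to 8.31 and 7.95 to 8.17. In RNA of mixed cells, fewer cells of a type and less RNA per cell cannot be told apart.

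After LPS, 7 of the 39 genes rose and 0 fell at a limma adjusted p under 0.05 over all genes. The background was 2.39% of all genes rising and 1.27% falling (3.66% in either direction), against 17.9% of the members rising. The risers were the ligand genes Tnfsf10 and Tnf and the receptor genes Cd40, Tnfrsf9, Tnfrsf11a, Tnfrsf1b and Tnfrsf10b. At an unadjusted p under 0.05, 12 members were higher and 1 was lower, where 7.11% of all genes were higher and 8.69% lower. The LPS pair lay wholly above the PBS pair in 19 members (48.7%, background 20.4%) and below them in 5 (12.8%, background 24.5%). The median log2 fold change was 0.09 over members and -0.01 over all genes. The members were chosen with earlier results of these data known.

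**Figure D1:**
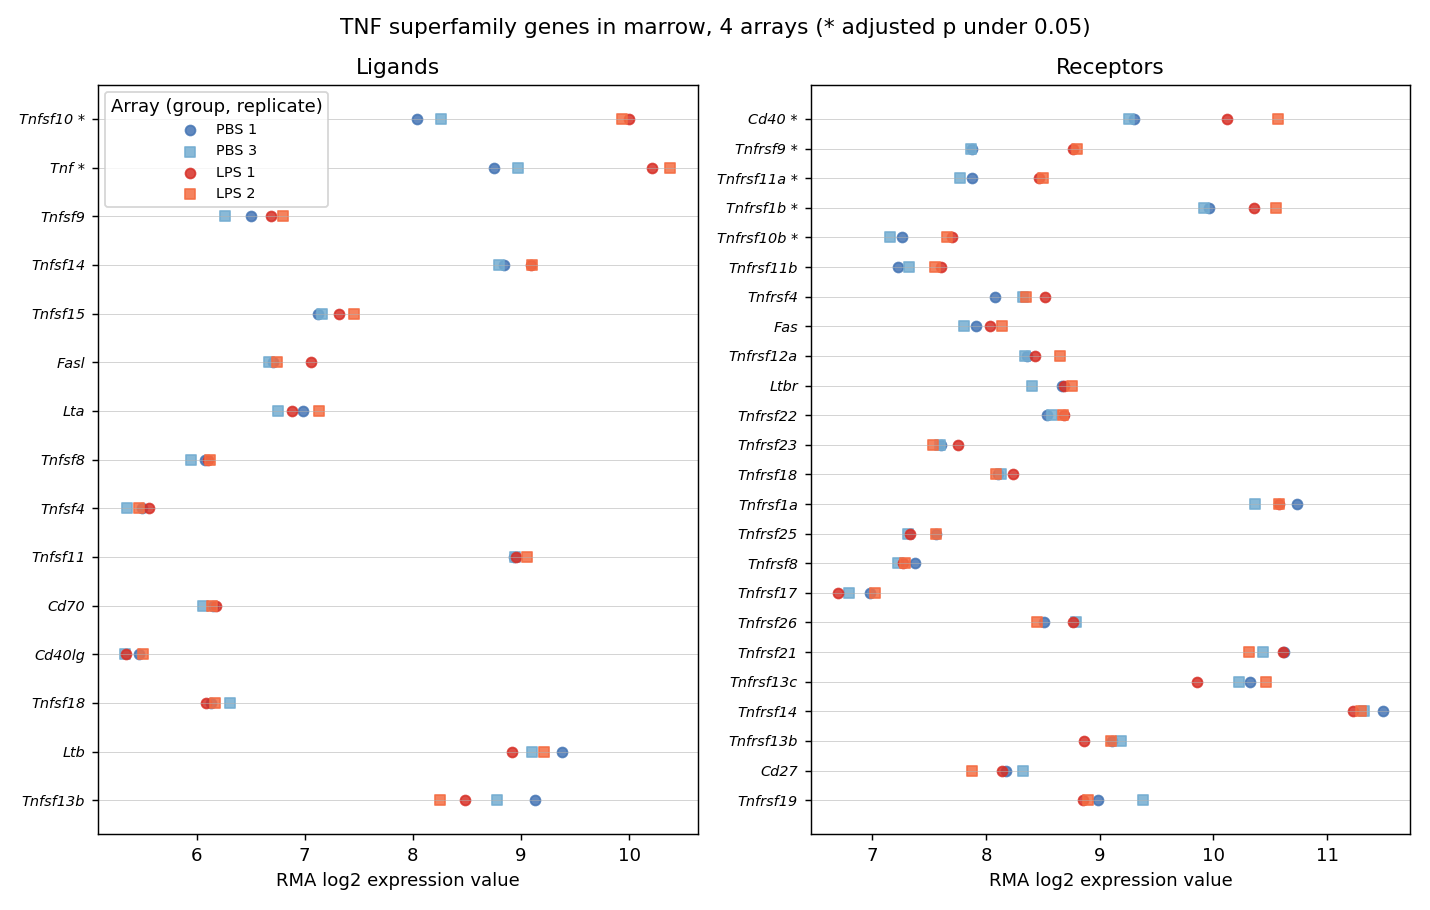
RMA log2 expression values (x axis) of the 15 ligand and 24 receptor genes (rows, ordered by log2 fold change), 1 point per array, blue for PBS and red or orange for LPS, with a star on the 7 genes that rose. Tnfsf10 and Tnf have the widest gap between the blue and the red points, and in Tnfsf13b, the lowest ligand row, both LPS points lie left of the PBS points.

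Tnfsf10, which encodes the death ligand TRAIL, changed most. The log2 level of Tnfsf10 (probe set 10491091) was 8.04 (PBS replicate 1) and 8.26 (PBS replicate 3), and after LPS 10.00 (replicate 1) and 9.93 (replicate 2). The groups were far apart, with averages of 8.15 ± 0.15 and 9.97 ± 0.05 (SD, n = 2 each). Tnfsf10 gained 1.82 on the log2 scale (SE 0.104, 95% interval 1.58 to 2.06, limma adjusted p = 7.46e-05), a 3.52-fold rise.

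Tnf, the pyrogenic cytokine that gave the family its name, came next. Tnf (probe set 10450501) was at 8.75 and 8.97 in PBS and at 10.22 and 10.38 in LPS, so the groups did not overlap. The means were 8.86 ± 0.16 and 10.30 ± 0.12 (SD, n = 2 each), a gain of 1.44 on the log2 scale (SE 0.111, 95% interval 1.18 to 1.70, limma adjusted p = 0.000343), a 2.72-fold rise.

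Lta and Ltb, which encode the lymphotoxin chains, lie next to Tnf on chromosome 17 in the RefSeq annotation of GRCm38.p6, with 0 other protein-coding genes between each pair. Lta was at 6.98 and 6.75 in PBS and 6.88 and 7.13 in LPS, overlapping, with a log2 fold change of 0.14 (95% interval -0.15 to 0.43, limma adjusted p = 0.677). Ltb was at 9.38 and 9.10 in PBS and 8.91 and 9.21 in LPS, also overlapping, with -0.18 (95% interval -0.49 to 0.13, adjusted p = 0.608). The interval of Tnf lay above those of both neighbours, but the difference itself was not tested.

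The stretch before the start of each of these 3 neighbouring ligand genes, of Tnfsf10 and of the receptor genes Tnfrsf1b and Tnfrsf9 is shown, since 4 of these genes rose and the 2 neighbours of Tnf did not pass. The sequences are the 250 bases before the annotated start, 5′ to 3′ in the direction of transcription, from RefSeq on GRCm38.p6. They are Tnfsf10 at chr3:27316827-27317076 (plus strand), Tnf at chr17:35202008-35202257 (minus), Lta at chr17:35205352-35205601 (minus), Ltb at chr17:35194257-35194506 (plus), Tnfrsf1b at chr4:145246871-145247120 (minus) and Tnfrsf9 at chr4:150927749-150927998 (plus, the downstream of its annotated starts). Capitals mark matches to the NF-kappaB consensus, to the interferon regulatory factor core (GAAA, any pair of bases, GAAA) or to the STAT element TTCNNNGAA, each searched on both strands.
Tnfsf10: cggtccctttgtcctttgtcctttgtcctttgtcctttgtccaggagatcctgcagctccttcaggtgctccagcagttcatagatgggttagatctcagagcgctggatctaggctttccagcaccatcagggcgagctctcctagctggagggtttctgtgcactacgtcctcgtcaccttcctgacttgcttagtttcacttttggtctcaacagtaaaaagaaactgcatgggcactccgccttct
Tnf: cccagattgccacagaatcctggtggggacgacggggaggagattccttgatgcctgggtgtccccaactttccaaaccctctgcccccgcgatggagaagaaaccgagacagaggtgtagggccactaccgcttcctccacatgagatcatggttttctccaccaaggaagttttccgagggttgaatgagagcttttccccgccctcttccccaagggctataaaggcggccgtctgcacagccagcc
Lta: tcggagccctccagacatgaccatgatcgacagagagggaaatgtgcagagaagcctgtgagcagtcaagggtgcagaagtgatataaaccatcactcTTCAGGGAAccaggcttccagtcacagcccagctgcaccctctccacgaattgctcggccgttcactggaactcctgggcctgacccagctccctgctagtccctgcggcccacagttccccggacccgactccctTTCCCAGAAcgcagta
Ltb: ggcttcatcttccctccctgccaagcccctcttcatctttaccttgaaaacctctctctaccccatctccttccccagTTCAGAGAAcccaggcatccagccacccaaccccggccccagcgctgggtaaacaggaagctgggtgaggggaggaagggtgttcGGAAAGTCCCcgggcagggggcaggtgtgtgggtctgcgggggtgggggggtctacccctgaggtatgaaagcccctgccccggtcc
Tnfrsf1b: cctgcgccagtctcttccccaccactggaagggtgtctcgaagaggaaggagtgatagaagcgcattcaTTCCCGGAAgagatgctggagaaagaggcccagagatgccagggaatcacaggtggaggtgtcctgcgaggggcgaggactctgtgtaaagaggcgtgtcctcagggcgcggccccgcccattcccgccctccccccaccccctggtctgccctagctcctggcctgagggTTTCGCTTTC
Tnfrsf9: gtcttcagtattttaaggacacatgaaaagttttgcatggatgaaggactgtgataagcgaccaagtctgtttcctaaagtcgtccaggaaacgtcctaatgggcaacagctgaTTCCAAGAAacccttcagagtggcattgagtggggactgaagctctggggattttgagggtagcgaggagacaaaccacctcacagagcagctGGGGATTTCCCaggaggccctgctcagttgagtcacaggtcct

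Matches stood in risers and in genes that did not pass alike. The window of Tnfrsf9 shown held overlapping NF-kappaB matches, GGGGATTTCC and GGGATTTCCC, at bases -43 to -33 from the start and a STAT match, TTCCAAGAA, at -136, while the window at its upstream start (chr4:150919905-150920154) held 0 matches. The window of the riser Tnfrsf11a (chr1:105780473-105780722, plus strand) also held 0. Tnfrsf1b held an interferon regulatory factor match (TTTCGCTTTC on the strand shown) directly before its start and a STAT match. Ltb, which did not pass, held an NF-kappaB match, GGAAAGTCCC, at -87 and a STAT match. Lta held only STAT matches, and these windows of Tnf and Tnfsf10 held none of the 3 motifs, which says only that these letters are not there.

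Over all 32841 annotated starts with a window of this length, 7.25% held the NF-kappaB consensus, 2.98% the interferon regulatory factor core and 7.02% the STAT element. Promoters were at hand for 30 of the 39 members, among them 5 of the 7 risers. Of these 30, 4 held the NF-kappaB consensus, 4 the interferon regulatory factor core and 8 the STAT element. Among the 5 risers the counts were 1, 1 and 2. A gene with several annotated starts was counted once if any window matched, so these counts are not on the same footing as the shares over starts. The interferon regulatory factor match of Tnfsf13b, GAAAGTGAAA, stood in the window at its downstream start (chr8:10006383-10006632). The window at its upstream start (chr8:10006217-10006466) held 0 matches. The LPS values of Tnfsf13b were the lower ones, but it did not pass (limma adjusted p = 0.0701).

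Of the other ligands, 13 did not pass. In Tnfsf14, Tnfsf15 and Tnfsf9 the LPS values exceeded every PBS value, with 95% intervals above 0. Tnfsf14 (LIGHT, a T-cell co-stimulator) was at 8.84 and 8.80 in PBS and 9.09 and 9.10 in LPS, a log2 fold change of 0.28 (limma adjusted p = 0.165). Tnfsf15 (TL1A) was at 7.12 and 7.16 in PBS and 7.32 and 7.46 in LPS, 0.24 on the log2 scale (adjusted p = 0.257). Tnfsf9, the ligand of the co-stimulatory receptor 4-1BB, had 6.50 and 6.27 in PBS and 6.69 and 6.80 in LPS, a log2 fold change of 0.36 (adjusted p = 0.153). It passed only without PBS replicate 1 (0.48, adjusted p = 0.0474, against 0.478 at the upper end of its alternatives).

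The RANKL gene Tnfsf11 stood at 8.94 and 8.95 in PBS and 8.95 and 9.05 in LPS, and the 95% interval of its log2 fold change ran from -0.15 to 0.27. Fasl, the Fas ligand gene of cytotoxic lymphocytes, had 6.71 and 6.67 in PBS, then 7.06 (replicate 1) and 6.74 (replicate 2) in LPS, so its log2 fold change of 0.21 (adjusted p = 0.455) rested on LPS replicate 1. It was 0.05 without that array (adjusted p = 0.942, the highest of its alternatives, against 0.261 at the lowest).

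Low values limit the rest. Cd40lg, Cd70, Tnfsf4, Tnfsf8, Tnfsf9, Tnfsf18 and Fasl, 7 of the 15 ligands and none of the receptors, had a group mean under 6.72, the highest lower quartile of the 4 arrays. Whether these genes were above the background of the array was not tested. Tnfsf4 (OX40 ligand), Tnfsf8 (CD30 ligand), Cd70 (the ligand of CD27), Cd40lg (CD40 ligand) and Tnfsf18 (GITR ligand) had log2 fold changes between -0.09 and 0.10.

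Tnfsf13b, which encodes the B-cell survival factor BAFF, was the ligand with the lowest log2 fold change. It was at 9.13 and 8.78 in PBS and at 8.49 and 8.25 in LPS, so both LPS arrays lay below both PBS arrays. It averaged 8.96 ± 0.25 in PBS and 8.37 ± 0.16 in LPS (SD, n = 2 each). The log2 fold change of -0.59 (SE 0.138, 95% interval -0.91 to -0.27) did not pass (limma adjusted p = 0.0701). It passed without PBS replicate 3 (-0.76, adjusted p = 0.00515) and without LPS replicate 1 (-0.70, adjusted p = 0.0329), and over all moderated alternatives the adjusted p ran from 0.00515 to 0.225.

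**Figure D2:**
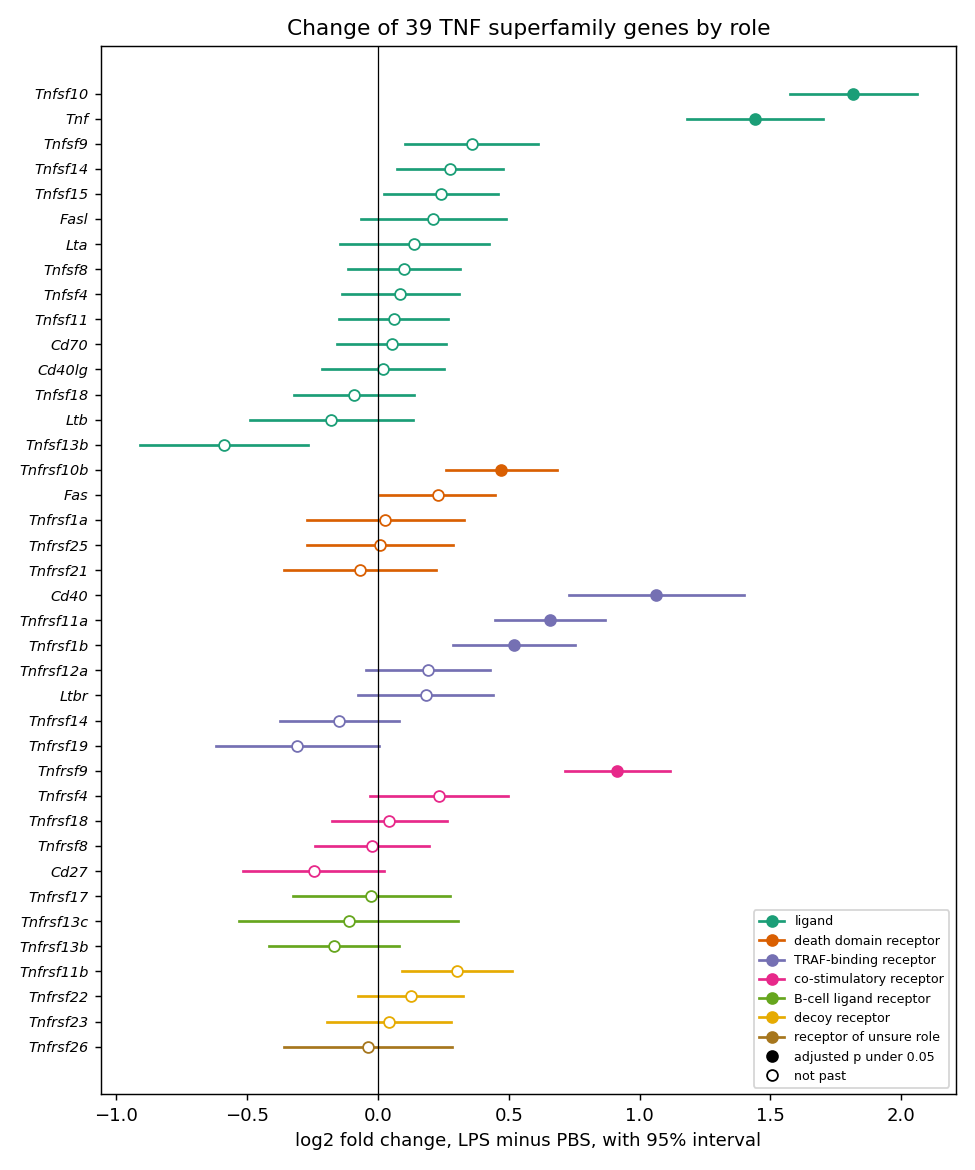
Log2 fold change (x axis, LPS minus PBS) with its 95% limma interval for the 39 genes, coloured by role, with filled points for an adjusted p under 0.05. The 7 filled points lie between 0.47 and 1.82, and Tnfsf13b is the lowest point at -0.59.

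Among death domain receptors 1 of 5 rose (background 2.39%). Tnfrsf10b (probe set 10416230), the mouse death receptor for TRAIL, read 7.26 and 7.15 in PBS and 7.70 and 7.66 in LPS, with no overlap. Its log2 fold change reached 0.47 (SE 0.0909, 95% interval 0.26 to 0.68, limma adjusted p = 0.034), a 1.39-fold rise. This call did not hold without PBS replicate 3 (adjusted p = 0.0643), LPS replicate 1 (0.136) or LPS replicate 2 (0.1003), nor with all probe sets in the fit (0.126), and its adjusted p over the moderated alternatives ran from 0.0256 to 0.136.

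Tnfrsf1a, the TNF receptor with a death domain found on most cells, was at 10.74 and 10.36 in PBS and 10.58 in both LPS arrays. The LPS values lay between the PBS values, and the 95% interval of the log2 fold change ran from -0.27 to 0.33 (limma adjusted p = 0.957). Fas, the death receptor of Fas ligand, was at 7.91 and 7.80 in PBS and 8.03 and 8.14 in LPS. These groups did not overlap, and the log2 fold change was 0.23 (95% interval 0.01 to 0.45, adjusted p = 0.292). Tnfrsf21 (death receptor 6) had -0.07 and Tnfrsf25 (the receptor of TL1A) 0.01, with overlapping arrays in both.

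Of 7 receptor genes grouped here as TRAF-binding, 3 rose (background 2.39%). The receptor classes hold few genes, and differences between classes were not tested. The co-stimulatory receptors and the receptors of BAFF, most of which also bind TRAF adaptors, were grouped apart, with the riser Tnfrsf9 among them. Cd40 (probe set 10478678), through which T cells license antigen-presenting cells and B cells, stood at 9.30 and 9.26 in PBS and 10.12 and 10.57 in LPS. All LPS values exceeded the PBS values, with means of 9.28 ± 0.03 and 10.34 ± 0.32 (SD, n = 2 each). Its log2 fold change reached 1.06 (SE 0.144, 95% interval 0.73 to 1.40, limma adjusted p = 0.00658), a 2.09-fold rise. When every probe set entered the fit the adjusted p was 0.0649, and over the moderated alternatives it ran from 0.000104 to 0.0649. Of 9 dendritic cell markers 0 rose and 1 fell (median -0.29), and of 9 monocyte and macrophage markers 2 rose and 2 fell (median -0.03). Of 9 B-cell markers 0 rose and 2 fell, and 8 were lower in LPS replicate 1 than in LPS replicate 2, as Cd40 was. The share of all genes with that order of the LPS arrays was not counted. The part of these cell types in Cd40 was not tested.

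Tnfrsf11a (probe set 10349051), the RANK gene of osteoclast precursors and dendritic cells, read 7.88 and 7.77 in PBS and 8.47 and 8.50 in LPS. The pairs were tight and apart, and the log2 fold change reached 0.66 (SE 0.0902, 95% interval 0.45 to 0.87, limma adjusted p = 0.00714), a 1.58-fold rise. Of 9 osteoclast markers 1 rose and 0 fell. Their summed linear-scale level was 11871 and 12388 in PBS and 12997 and 14009 in LPS, their median log2 fold change was 0.35, and their part in the change of Tnfrsf11a was not tested. Between the PBS arrays, 6 of the 9 markers were lower in replicate 1 than in replicate 3, and the share of all genes with that order was not counted. The median deviation from the gene's mean was -0.25 (PBS replicate 1) and -0.09 (PBS replicate 3), and the gap was widest in Ctsk and Atp6v0d2. The mean log2 value of the 9 markers was 8.80 (replicate 1) and 9.27 (replicate 3) in PBS, against 9.35 and 9.49 in LPS. Ctsk was at 8.61 and 10.59 in PBS and at 10.45 and 10.90 in LPS, and Atp6v0d2 at 6.82 and 8.34 against 8.23 and 8.18. In the linear sum the highest gene weighs most, here Mmp9, at 12.43 and 12.07 in PBS and 12.15 and 11.98 in LPS.

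Tnfrsf1b (probe set 10518300), the TNF receptor without a death domain, abundant on leukocytes, was at 9.96 and 9.91 in PBS and 10.36 and 10.55 in LPS. The groups did not overlap, and the log2 fold change reached 0.52 (SE 0.100, 95% interval 0.29 to 0.75, limma adjusted p = 0.0339), a 1.43-fold rise. The call was lost when LPS replicate 2 was left out (0.42, adjusted p = 0.174) and with all probe sets in the fit (adjusted p = 0.134), and the range over moderated alternatives was 0.0253 to 0.174. For the same ligand, Tnfrsf1b thus passed and Tnfrsf1a did not. Their intervals overlapped between 0.29 and 0.33, and the difference between them was not tested.

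The other 4 genes of this class did not pass. Ltbr, the lymphotoxin beta receptor gene, was at 8.67 and 8.40 in PBS and 8.68 and 8.75 in LPS, and Tnfrsf12a, the TWEAK receptor gene, at 8.36 and 8.34 against 8.43 and 8.65. Both had LPS arrays above PBS arrays, by 0.18 and 0.19 on the log2 scale. Tnfrsf14 (HVEM, the receptor of LIGHT) was at 11.49 and 11.33 in PBS and 11.23 and 11.30 in LPS, with a log2 fold change of -0.15. Tnfrsf19 (TROY), at 8.98 and 9.38 in PBS and 8.85 and 8.90 in LPS, had -0.31 (adjusted p = 0.32) and passed only without PBS replicate 1 (-0.51, adjusted p = 0.0317, against 0.717 at the other end of its alternatives). Stromal and osteoblast markers also differed between the PBS arrays, with a mean log2 value of 10.37 in replicate 1 and 11.13 in replicate 3, against 10.89 and 10.71 in LPS; their part in Tnfrsf19 was not tested.

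Among co-stimulatory receptors of lymphocytes 1 of 5 rose (background 2.39%). Tnfrsf9 (probe set 10510580), which encodes 4-1BB (CD137), read 7.88 and 7.87 in PBS and 8.77 and 8.80 in LPS. The arrays of each group lay close together, with means of 7.87 ± 0.01 and 8.79 ± 0.02 (SD, n = 2 each). Its log2 fold change reached 0.91 (SE 0.0862, 95% interval 0.71 to 1.11, limma adjusted p = 0.00105), a 1.88-fold rise. Tnfrsf4 (OX40) was at 8.08 and 8.32 in PBS and 8.52 and 8.35 in LPS, with a log2 fold change of 0.23 (adjusted p = 0.381). Tnfrsf18 (GITR, 0.04) and Tnfrsf8 (CD30, -0.02) had overlapping arrays.

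Cd27, a receptor found on T cells and natural killer cells among others, was lower in both LPS arrays (8.14 and 7.87) than in the PBS arrays (8.18 and 8.32). Its log2 fold change of -0.25 did not pass (limma adjusted p = 0.361). Of 9 T-cell markers, 0 rose and 1 fell, with a summed linear-scale level of 3122 and 3133 in PBS and 2808 and 2520 in LPS. As for Cd27, LPS replicate 2 was the lowest array. Of 9 natural killer markers 2 rose and 1 fell, and their mean log2 value was 7.95 and 8.04 in PBS and 8.17 and 7.96 in LPS. The part of either cell type in the values of Cd27, Tnfrsf9 and Tnfrsf4 was not tested.

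The receptors of BAFF did not pass. Tnfrsf13c (BAFF receptor) was at 10.33 and 10.22 in PBS, and at 9.86 (replicate 1) and 10.47 (replicate 2) in LPS. The 2 LPS arrays lay on opposite sides of the PBS arrays, and the log2 fold change was -0.11 (95% interval -0.53 to 0.31). Tnfrsf17 (BCMA, a plasma cell receptor) behaved likewise, at 6.98 and 6.80 in PBS and 6.70 and 7.03 in LPS. Tnfrsf13b (TACI) was at 9.11 and 9.19 in PBS and at 8.86 and 9.10 in LPS, with -0.17 on the log2 scale (adjusted p = 0.528).

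In these 3 receptor genes and in Ltb, LPS replicate 1 was the lowest of the 4 arrays. Of 9 B-cell markers, 8 were also lower in LPS replicate 1 than in LPS replicate 2. The share of all genes with that order was not counted, and in the other marker lists it ran from 0 of 10 (neutrophil) to 6 of 7 (erythroid). The median deviation of the B-cell markers from the gene's mean was -0.32 (LPS replicate 1) and 0.15 (LPS replicate 2), against 0.12 and 0.10 in PBS. The summed linear-scale level of the 9 markers was 18244 and 18449 in PBS, then 13818 (replicate 1) and 18980 (replicate 2) in LPS, and 0 rose and 2 fell, Fcer2a and Cr2. Without LPS replicate 1 the log2 fold change of Tnfrsf13c was 0.19, the opposite sign. Of 6 plasma cell markers 0 rose and 0 fell. The LPS pair lay above the PBS pair in 3 of them and below in 3 (20.4% and 24.5% of all genes). Their median log2 fold change was 0.02, with mean log2 values of 9.18 and 9.25 in PBS and 9.14 and 9.28 in LPS. The part of B-cell or plasma cell content in these 4 genes was not tested.

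**Figure D3:**
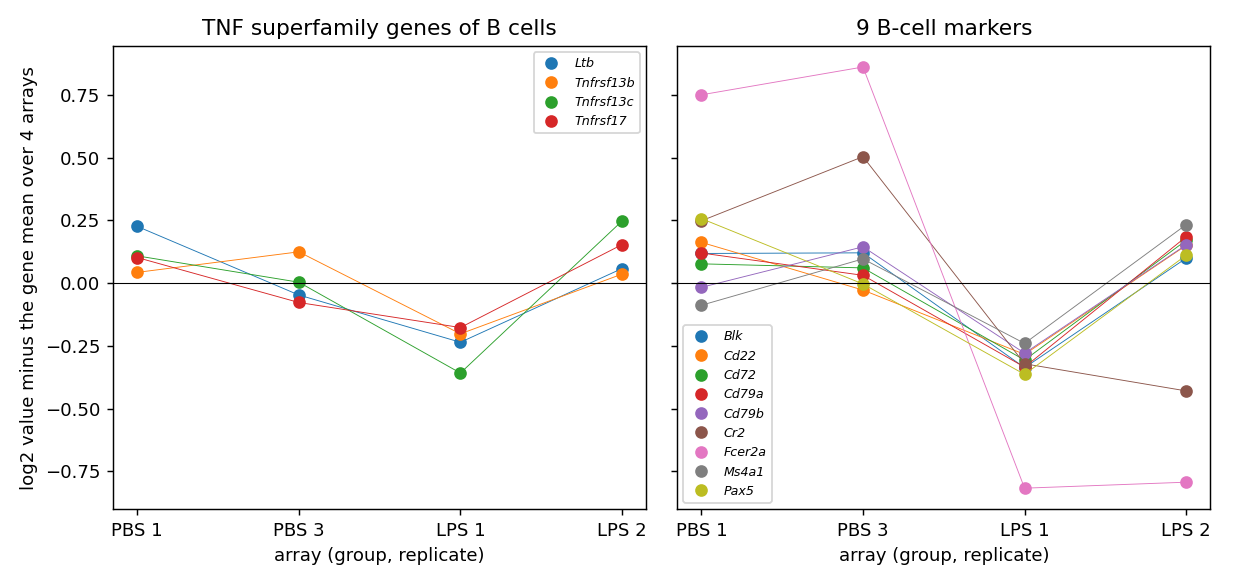
Log2 value minus the gene's mean over the 4 arrays (y axis) for Ltb, Tnfrsf13b, Tnfrsf13c and Tnfrsf17 (left) and for 9 B-cell markers (right), with arrays on the x axis and thin lines joining the points of a gene. All 4 genes on the left are lowest in LPS replicate 1, where the marker median is -0.32, and Fcer2a and Cr2 are low in both LPS arrays.

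None of the 3 decoy receptors passed, and all 3 had positive values (47.5% of all genes did). Tnfrsf11b, the osteoprotegerin gene, was at 7.23 and 7.32 in PBS and 7.60 and 7.55 in LPS, without overlap. Its log2 fold change of 0.30 (95% interval 0.09 to 0.51) had a limma adjusted p of 0.146. The TRAIL-binding decoys Tnfrsf22 (0.13) and Tnfrsf23 (0.04) lie beside each other and beside Tnfrsf26 (-0.04) on chromosome 7. These are related genes, and probes of one could also bind RNA of another; whether these do was not tested.

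Read as ligand and receptor, 24 known pairs were measured. In 2 pairs both partners rose, Tnf with Tnfrsf1b and Tnfsf10 with Tnfrsf10b. Both of these receptor calls were lost with all probe sets in the fit and when certain single arrays were left out. In 4 pairs the ligand passed and the receptor did not, namely Tnf with Tnfrsf1a and Tnfsf10 with the decoys Tnfrsf22, Tnfrsf23 and Tnfrsf11b. In 4 the receptor passed and the ligand did not, namely Lta with Tnfrsf1b, Cd40lg with Cd40, Tnfsf9 with Tnfrsf9 and Tnfsf11 with Tnfrsf11a. In 14 neither passed. Pairs share genes and are not independent, and the differences between partners were not tested. The intervals of Cd40 (0.73 to 1.40) and Cd40lg (-0.21 to 0.25) lay apart, as did those of Tnfrsf11a (0.45 to 0.87) and Tnfsf11 (-0.15 to 0.27).

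**Figure D4:**
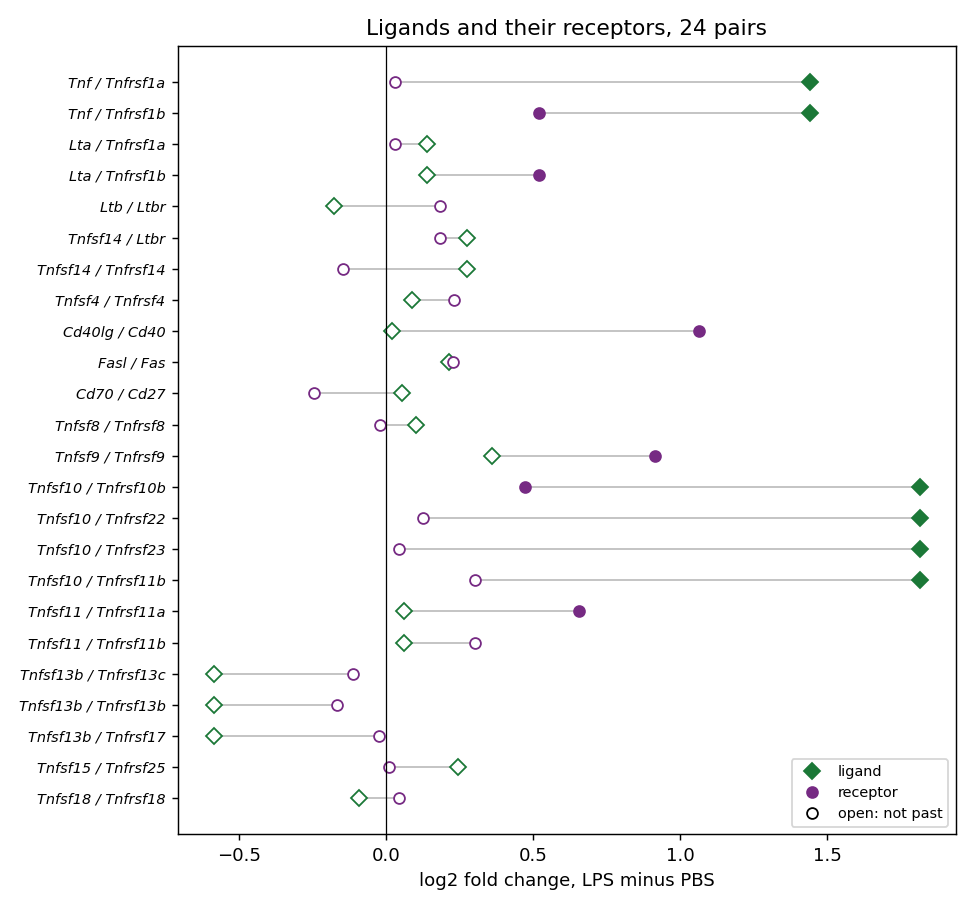
Log2 fold change (x axis, LPS minus PBS) of the ligand (green diamond) and the receptor (purple circle) in each of 24 ligand and receptor pairs, filled where the adjusted p was under 0.05. Cd40lg and Tnfsf11 lie near 0 while their receptors Cd40 and Tnfrsf11a lie at 1.06 and 0.66.

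Genes that carry the signal inside the cell were read from a list of adaptors, kinases and their partners, inhibitors, death effectors and NF-kappaB subunits. Of 43 listed, 37 had a probe set of their own, and 7 rose (18.9%, background 2.39%) and 0 fell by limma. At an unadjusted p under 0.05, 15 were higher and 1 lower (7.11% and 8.69% of all genes). The median log2 fold change was 0.08.

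Of the 7 risers, 3 restrain the pathway. Tnfaip3, which encodes the ubiquitin-editing enzyme A20, was at 8.74 and 8.67 in PBS and 9.46 and 9.73 in LPS, a log2 fold change of 0.89 (SE 0.110, limma adjusted p = 0.00427). Its partner gene Tnip1 had 0.66 (adjusted p = 0.011) and the NF-kappaB inhibitor gene Nfkbia 0.62 (adjusted p = 0.0129). With every probe set fitted, Tnip1 (adjusted p = 0.0711, range over moderated alternatives 0.00625 to 0.0711) and Nfkbia (0.0728, range 0.00477 to 0.0728) lost their calls, and Tnfaip3 kept its call in all 9 moderated alternatives. The 11 genes listed as inhibitors pool brakes on signalling with inhibitors of cell death (Birc2, Birc3, Xiap and Cflar). Of the 11, 10 had positive values (47.5% of all genes did), with a median of 0.33. Cflar, which blocks caspase-8, had 0.41 (adjusted p = 0.0632).

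Mlkl, the pore-forming executor of necroptosis, changed most. It was at 8.83 and 8.96 in PBS and 10.06 and 9.89 in LPS, a log2 fold change of 1.08 (SE 0.102, limma adjusted p = 0.00108). Its activating kinase gene Ripk3 had 0.34 (adjusted p = 0.0857) and Casp8 0.33 (adjusted p = 0.122), both with LPS arrays above PBS arrays. Traf1, an adaptor that binds TNF and CD40 family receptors with TRAF2, rose by 0.73 (adjusted p = 0.00537). It was at 6.58 and 6.60 in PBS and 7.24 and 7.41 in LPS, and its PBS mean lay under 6.72, the highest lower quartile of the arrays. Traf2 had 0.12, and Fadd and Tradd had -0.09 and -0.04. The subunit genes of the alternative NF-kappaB pathway, Nfkb2 (0.59, adjusted p = 0.0304) and Relb (0.50, adjusted p = 0.0335), rose, and Rela and Rel had -0.01 and -0.07. Nfkb2 lost its call when LPS replicate 2 was left out (adjusted p = 0.121) and with every probe set fitted (0.133, range over moderated alternatives 0.0104 to 0.133), and Relb lost its call without PBS replicate 3 (0.0616), LPS replicate 1 (0.0653) or LPS replicate 2 (0.135) and with every probe set fitted (0.131, range 0.0146 to 0.135). Among 9 genes listed as kinases 0 passed (1 higher and 1 lower at an unadjusted p under 0.05, by limma). Of these, 7 had negative values, as did 52.5% of all genes. Tab1, Tab2, Tab3 and Ikbkg on this list are partner subunits rather than kinases, and the lower gene was Tab3 (-0.28).

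Many ligands are cut from the membrane. Of 10 genes for shedding and processing 2 rose (20%, background 2.39%) and 0 fell (background 1.27%) by limma. At an unadjusted p under 0.05, 3 were higher and 0 lower, against 7.11% and 8.69% of all genes. Timp3, which encodes an inhibitor of the TNF-releasing protease ADAM17, was at 10.76 and 10.59 in PBS and 11.70 and 11.60 in LPS, a log2 fold change of 0.97 (SE 0.0999, limma adjusted p = 0.00165). The membrane metalloprotease gene Mmp14 was at 9.06 and 9.31 in PBS and 9.98 and 10.26 in LPS, 0.93 on the log2 scale (SE 0.129, adjusted p = 0.00749, and 0.0668 with all probe sets in the fit). Adam17 itself had 0.25 (adjusted p = 0.249) and the gene of its trafficking partner Rhbdf2 0.24 (adjusted p = 0.36), both with LPS arrays above PBS arrays. Adam10, which sheds other ligands of the family, had -0.20 with LPS arrays below PBS arrays.

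**Figure D5:**
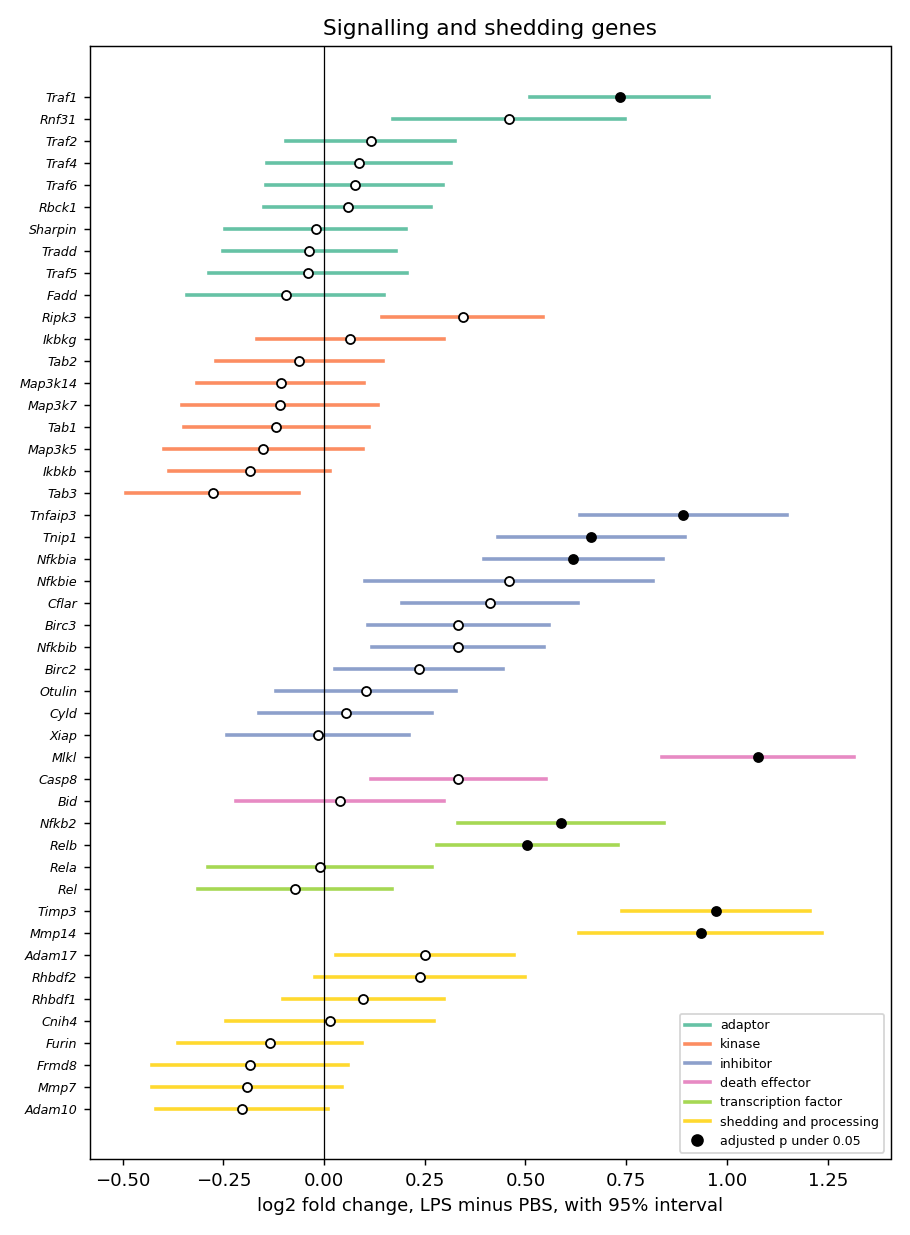
Log2 fold change (x axis, LPS minus PBS) with its 95% limma interval for 37 signalling genes and 10 shedding and processing genes, coloured by role, with filled points for an adjusted p under 0.05. Mlkl (1.08), Timp3 (0.97), Mmp14 (0.93) and Tnfaip3 (0.89) lie farthest right. The rows of the kinase group, which includes partner subunits of kinases, lie mostly left of 0.

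Relatives of the family whose symbols fall outside the naming rule did not pass. Eda2r, a receptor of ectodysplasin, was at 5.82 and 6.25 in PBS and 6.66 and 6.50 in LPS, with a log2 fold change of 0.54 (limma adjusted p = 0.107). It passed only without PBS replicate 3 (0.76, adjusted p = 0.00348, against 0.287 at the upper end of its alternatives). Its values lay under the lower quartile of the arrays. Ngfr (-0.20), Relt (-0.18) and Eda (-0.17) had both LPS arrays below both PBS arrays, and Edar (-0.01) overlapped.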

How the data were processed

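The authors deposited 1 table of log2 values for the 4 arrays, processed with RMA (version not stated), per the submitters' processing notes. The values span 2.76 to 14.52, from which the scale was taken. Of 35556 probe sets, 21789 had 1 gene symbol in the platform annotation, 1621 several and 12146 none. The probe set with the highest mean stood for a gene, leaving 19938 genes, with no filter. LPS was compared with PBS with limma 3.58.1 in R 4.3.3 (lmFit, eBayes, two-sided, no covariate, 2 residual and 5.59 prior degrees of freedom), with Benjamini-Hochberg adjustment over all genes and a threshold of 0.05. The number of arrays limits the precision, and an exact permutation test of 2 against 2 cannot go below p = 0.333. The fit was tested on simulated data drawn from its own variance model with independent genes, which cannot check these assumptions. Every member may be named; of the other lists, up to 6 past the threshold in each direction, with Relb added after its value was seen. The members and lists were chosen with earlier results of these data known. Alternatives changed the probe set rule, features fitted, moderation, filter, centring and arrays. Figures used Python 3.11.15 and matplotlib 3.10.9.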

Additional observations from a re-analysis of the deposited data

How the results depend on the processing

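With all probe sets in the fit, 4 members, 3 signalling genes and 1 shedding gene rose, against 7, 7 and 2. Of all genes 290 then passed in either direction, against 730. In that fit 63 of the 35556 probe sets fell, with or without a single gene symbol. That count is not on the same footing as the 254 genes that fell in the main fit. Without variance moderation, 0 genes rose or fell in any of these lists or among all genes after adjustment (10 members and 2185 genes had an unadjusted p under 0.05). Leaving out 1 array at a time gave 5 to 8 rising and 0 to 1 falling members, 5 to 10 rising signalling genes, 2 rising shedding genes, and 385 to 696 rising and 127 to 423 falling genes in all. The eighth riser, without PBS replicate 1, was Tnfsf9, and the single falling member was Tnfrsf19 without PBS replicate 1 and Tnfsf13b without PBS replicate 3 or LPS replicate 1. In these fits the lone array of a group is assumed to vary like the other group. Tnfsf10, Tnf, Tnfrsf9 and Tnfrsf11a passed in all 9 moderated alternatives, Cd40 in 8, Tnfrsf1b in 7 and Tnfrsf10b in 5. Genes near 0 changed sign when an array was left out: Cd40lg ran from -0.057 to 0.098, Tnfrsf13c from -0.41 to 0.19, Tnfrsf17 from -0.19 to 0.14, Tnfrsf18 from -0.030 to 0.12, Tnfrsf1a from -0.16 to 0.22, Tnfrsf21 from -0.21 to 0.079, Tnfrsf23 from -0.064 to 0.15, Tnfrsf25 from -0.11 to 0.13, Tnfrsf26 from -0.20 to 0.12, Tnfrsf8 from -0.096 to 0.053 and Edar from -0.076 to 0.054. The cause of these changes was not tested. No paired analysis was possible because the groups share only replicate number 1.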
